A study of Homo sapiens with 24 samples.

Results

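The inositol hexakisphosphate kinases and the enzymes beside them in the pathway were followed in nascent RNA after glucocorticoid treatment. Members were taken by gene symbol from the exon count table, and 6 of its 61533 genes were found: IP6K1, IP6K2, IP6K3, PPIP5K1, PPIP5K2 and IPPK. All 6 passed the filter on low counts. IP6K3 was picked because it had shown the strongest evidence of a rise in wt GR cells after 3 h of hormone, so its changes against 0 h and its differences from wt are given as a description without a test. The 5 other members entered by family name.

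The cells were U2OS, a human osteosarcoma line with little glucocorticoid receptor (GR) of its own. A GR construct with a HaloTag had been inserted with the PiggyBac transposon under a CMV promoter, followed by puromycin selection and sorting on a HaloTag dye. There were 3 lines, namely wt GR, SoF GR (the K492A change, made to reduce RNA binding) and Ctrl GR (the R470A change, a comparison mutant with weakened DNA binding, since K492A weakens DNA binding too). Each line was 1 sorted pool, so a construct and its pool cannot be told apart. Cells of each line were given 100 nM of the synthetic glucocorticoid dexamethasone for 1, 2 or 3 h, and the 0 h group had 0.01% ethanol. How long the ethanol dishes were kept is not stated in the sources used here. All dishes received 200 µM 4-thiouridine for 1 h before harvest, and the RNA that had taken it up was purified and sequenced (4sU-seq). Each of the 12 groups held 2 libraries, which made 24 in all and 8 per line. Nothing in the labels says whether the 2 libraries came from separate cultures, so p-values measure the spread between libraries, which may be technical. The paper reports that samples were biotinylated and pulled down as replicate pairs. If such a pair is the 2 libraries of a group, a pulldown batch cannot be told apart from line and time. The spread within groups would then leave that batch out.

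Total counts per library ran from 8106036 to 15820806. NR3C1, the gene of the receptor, averaged 688 CPM in wt, 2630 in SoF and 3317 in Ctrl at 0 h, with endogenous and inserted copies counted together. In the same order its means were 1453, 5801 and 6625 CPM at 1 h and 350, 1124 and 1696 CPM at 3 h. The paper reports that sorted fractions were picked so that nuclear GR protein matched between lines by immunofluorescence. RNA counts do not measure that protein. CPM is the count per 1000000 counts of a library after TMM scaling. Of the osteoblast markers checked, RUNX2 (51.5 to 158 CPM), COL1A1 (250 to 1008 CPM) and SPARC (207 to 382 CPM) were present in every library, while SP7, IBSP and COL1A2 were below 1 CPM in all of them. Of the haematopoietic markers, CD3E had at most 1 count in any library, and PTPRC was detected in every library at 0.27 to 2.17 CPM.

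Inositol polyphosphates carry phosphate groups around a sugar-like ring. IPPK adds the last single phosphate to make inositol hexakisphosphate (IP6), a cofactor of many nuclear proteins. The IP6 kinases IP6K1, IP6K2 and IP6K3 then attach another phosphate onto an existing one to make the pyrophosphate 5-IP7, and PPIP5K1 and PPIP5K2 act at a different ring position to yield IP8. These pyrophosphates signal energy and phosphate status, and IP6K3 is known mainly from skeletal muscle and brain. GR activates genes mostly by binding, as a dimer, to glucocorticoid response elements (GREs), which hold 2 copies of a 6-base arm (AGAACA and its reverse complement TGTTCT) around a 3-base spacer.

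IP6K3 (ENSG00000161896.12, hg38 chr6:33721662-33746905, minus strand) changed most, so the sequence around its start is shown. The RefSeq window from 250 bases before to 50 after its annotated start (chr6:33746856-33747155, GRCh38.p14, written on the gene's own strand) held 1 arm, in capitals, 105 bases before the start:

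IP6K3 promoter: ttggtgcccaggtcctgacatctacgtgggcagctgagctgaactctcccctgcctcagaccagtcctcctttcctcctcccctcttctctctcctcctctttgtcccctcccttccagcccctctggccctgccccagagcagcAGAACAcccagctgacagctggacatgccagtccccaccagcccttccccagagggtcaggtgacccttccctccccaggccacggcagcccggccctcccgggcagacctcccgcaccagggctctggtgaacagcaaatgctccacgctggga

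Such an arm, read on either strand, occurred in 14.8% of 35116 RefSeq promoter windows of the same length. PPIP5K1 had an arm in 1 of its 4 windows, 233 bases before that start, and the windows of IP6K1, IP6K2, PPIP5K2 and IPPK had none. A relaxed element of GNACA, 3 spacer bases of any kind and TGTNC reads the same on both strands and covers any arm inside it. It was searched within 30 kb on either side of each start in hg38. IP6K3 had 3 matches, IP6K1 and IPPK had 1 each, and IP6K2, PPIP5K1 and PPIP5K2 had 0. The matches follow with the 13-base element in capitals, on the plus strand:

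IP6K3, intron, 591 bases after the start (chr6:33746307-33746321): aGGACATGCTGTTCc
IP6K3, intron, 16091 bases after the start (chr6:33730807-33730821): aGGACAGGCTGTTCc
IP6K3, intron, 18308 bases after the start (chr6:33728590-33728604): cGCACATTTTGTCCt
IP6K1, outside the gene (chr3:49806523-49806537): gGCACATCCTGTCCc
IPPK, outside the gene (chr9:92675138-92675152): gGTACAGGGTGTTCa

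The IP6K1 match lay at -19988 and the IPPK match at -5014 relative to the start, that is, upstream. Of 23580 tested genes scanned in the same way, 53.2% held at least 1 match, the median was 1, and 94.9% had fewer than the 3 of IP6K3. The strict element of AGAACA, 3 spacer bases and TGTTCT was found around no member's start and around that of 0.958% of tested genes. Of the RefSeq promoter windows, 0.39% held the relaxed element and no member's did. These are matches of letters. GR binding was not measured in the table used here.

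IP6K3 was nearly silent before hormone and climbed at every time point in all 3 lines. In wt the 2 libraries gave 0.809 and 1.23 CPM at 0 h, 6.15 and 4.09 at 1 h, 14.3 and 16.2 at 2 h, and 18.5 and 27.5 at 3 h. In SoF they gave 1.47 and 1.70 CPM at 0 h, 6.34 and 5.18 at 1 h, 19.5 and 16.9 at 2 h, and 39.9 and 41.1 at 3 h. In Ctrl they gave 0.786 and 1.18 CPM at 0 h, 4.59 and 3.44 at 1 h, 7.29 and 9.86 at 2 h, and 12.2 and 11.8 at 3 h. Both libraries at each dexamethasone time lay above both ethanol libraries of the same line, and by 3 h the 3 lines formed separate ranges with SoF highest and Ctrl lowest. Before hormone, IP6K3 rested on 10 to 20 reads per library, which makes the starting level the least precise part of each fold change.

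**Figure D1:**
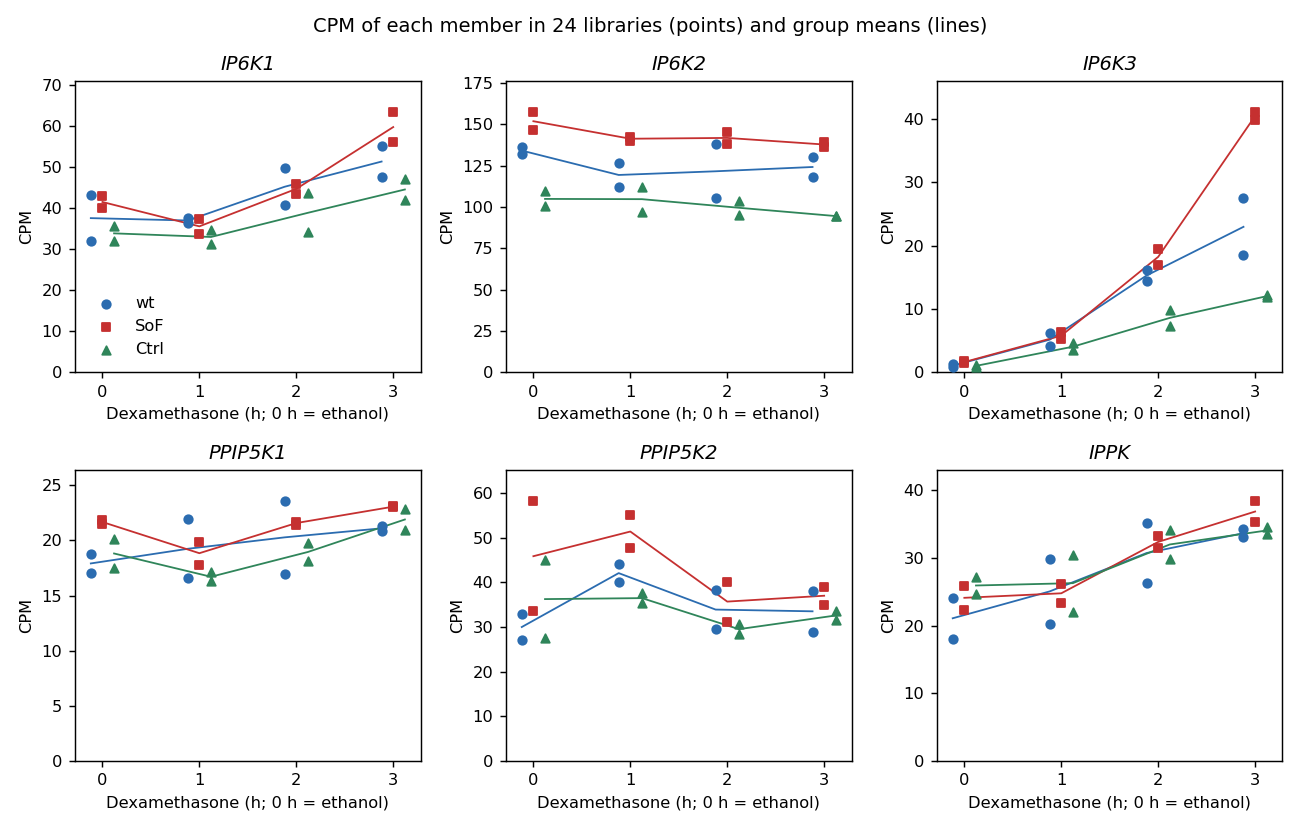
CPM (y axis, linear from 0, own scale per gene) of the 6 members against hours of dexamethasone (x axis) in wt, SoF and Ctrl cells; points are single libraries, shifted sideways by line, and lines join the means of 2. IP6K3 climbs from at most 1.70 CPM to between 11.8 and 41.1 CPM, whereas IP6K2 stays between 94.3 and 157 CPM with SoF above Ctrl throughout.

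Against 0 h, the log2 change of IP6K3 was 2.32 (SE 0.32) in wt, 1.86 (SE 0.31) in SoF and 2.08 (SE 0.36) in Ctrl at 1 h. At 2 h it was 3.90 (SE 0.29), 3.52 (SE 0.28) and 3.18 (SE 0.32), and at 3 h it was 4.49 (SE 0.29), 4.67 (SE 0.28) and 3.66 (SE 0.32), in the same order of lines. As fitted folds the 3 h changes were 22.5-fold, 25.5-fold and 12.6-fold. Ranked by log2 change at 3 h among 23651 tested genes, IP6K3 stood 16th from the top in wt, 31st in SoF and 17th in Ctrl, a description, since its wt change is the reason it was chosen. The wt change at 3 h ran from 4.19 to 4.83 as single libraries were left out.

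The question raised by the 2 mutants is whether the response depends on the RNA-binding function of GR, and the comparison of SoF with Ctrl uses no wt library, so IP6K3 could be tested there. At 3 h the log2 response in SoF exceeded the one in Ctrl by 1.02 (SE 0.47, 95% interval 0.04 to 2.00). This did not pass the quasi-likelihood test of edgeR after Benjamini-Hochberg adjustment across all tested genes (adjusted p 1.00, unadjusted p 0.0427). Few genes passed in that comparison, 3 of 23651 or 0.0127%. The difference was 0.76 without Ctrl 0 h replicate 2 and 1.33 without Ctrl 0 h replicate 1, and it was not called in either case. The response in SoF exceeded that in wt by 0.18 (SE 0.45), and that in Ctrl fell short of wt by a log2 difference of -0.84 (SE 0.48), both without a test.

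Before hormone, SoF exceeded Ctrl in IP6K3 by 0.74 (SE 0.40, 95% interval -0.10 to 1.57), not called in the edgeR test (adjusted p 0.78). For the level of IP6K3 over all 8 libraries of a line, SoF exceeded Ctrl by 1.37 (SE 0.69, 95% interval -0.05 to 2.79), without a call (adjusted p 0.377 in the edgeR test). The SoF libraries ran from 1.47 through a median of 11.6 to 41.1 CPM and the Ctrl libraries from 0.786 through 5.94 to 12.2 CPM, and the ranges overlapped, each line spanning the whole time course. With time as an additive term, the difference was 1.19. It passed the adjusted threshold there, but this is given as a description and not as a test. That fit shares its time terms with the wt libraries, on which IP6K3 was chosen. It also takes the gap between SoF and Ctrl as the same at every time. Of all tested genes it called 6.73% higher in SoF than in Ctrl and 6.6% lower.

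Among the genes within 100 kb of IP6K3, ITPR3, which encodes a receptor for inositol trisphosphate that releases calcium from the endoplasmic reticulum, lies 25.1 kb away. It averaged 44.7 CPM at 0 h and 84.1 CPM at 3 h in wt, 31.8 and 95.9 CPM in SoF, and 25.8 and 81.3 CPM in Ctrl. In the edgeR test it rose at 3 h by 0.91 in wt (SE 0.21, adjusted p 0.00734), by 1.59 in SoF (SE 0.22, adjusted p 2.91e-05) and by 1.65 in Ctrl (SE 0.22, adjusted p 4.87e-05) on the log2 scale. The closer UQCC2, a mitochondrial complex III assembly factor 9.9 kb away, had log2 changes of -0.01, 0.14 and 0.09, and LEMD2, an inner nuclear membrane protein 24.3 kb away, of -0.01, 0.23 and 0.26, none of them called.

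Because IP6K3 is known from muscle, 7 skeletal muscle genes were checked. MYOD1 and MYOG, the regulators that define the lineage, had at most 2 and 1 counts in any library, and CKM had at most 1. MYH3 (4.59 to 8.65 CPM), ACTA1 (0.24 to 2.49 CPM) and TTN (0.57 to 17.1 CPM) were counted in every library. From 0 h to 3 h the mean of DES went up, from 0.21 to 0.65 CPM in wt. In SoF it went from 0.30 to 0.88 CPM and in Ctrl from 0.21 to 0.91 CPM. The summed level of the list ranged from 11.5 to 17.9 CPM at 0 h and from 7.005 to 8.24 CPM at 3 h in wt. In SoF it lay between 13.6 and 17.5 CPM and then between 6.96 and 9.61 CPM, and in Ctrl between 11.999 and 22.6 CPM and then between 9.09 and 10.9 CPM. Within each line every 3 h sum was below every 0 h sum. Most of that fall was in TTN, and without it the sum was 6.92 to 7.68 CPM at 0 h and 6.26 to 7.20 CPM at 3 h in wt, 7.42 to 8.48 and 6.36 to 9.04 CPM in SoF, and 5.53 to 7.14 and 7.65 to 10.2 CPM in Ctrl.

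The genes whose pattern was most like that of IP6K3 were found by Pearson's r over the 12 group means of log2 CPM, as a description without a p. The points share lines, libraries and depth. GGT5, a gamma-glutamyltransferase family enzyme, came first at 0.992, followed by DNER at 0.987, BIRC3, an inhibitor of apoptosis, at 0.982, and ZBTB16, a zinc finger transcription factor, at 0.978. CPNE7 and DUBR followed at 0.973 each, then LINC00525 at 0.972 and ZNF189 at 0.971. All 8 had their highest mean in SoF, 7 of them at 3 h and LINC00525 at 2 h.

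**Figure D2:**
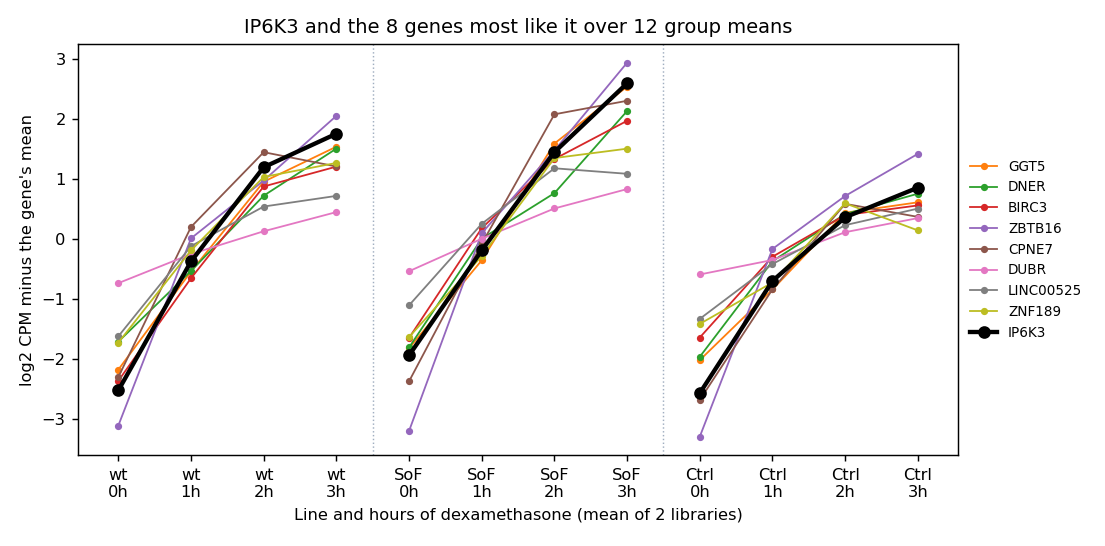
Mean log2 CPM of 2 libraries, centred on each gene's mean (y axis), for IP6K3 (thick black line) and the 8 genes most correlated with it (thin lines) over 4 times in each of 3 lines (x axis). The 8 genes were chosen for this shape, and in all but LINC00525 the highest point is SoF at 3 h.

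The other IP6 kinases were expressed before hormone and moved far less. IP6K1 (ENSG00000176095.12, chr3:49724294-49786542, minus strand) gave 31.9 and 43.1 CPM in wt, 42.8 and 40.0 in SoF, and 35.6 and 31.9 in Ctrl at 0 h. After 3 h it gave 47.5 and 55.1 CPM in wt, 56.0 and 63.3 in SoF, and 42.0 and 46.9 in Ctrl. Both 3 h libraries lay above both 0 h libraries in each line. The log2 change was 0.53 in SoF (SE 0.16, 95% interval 0.19 to 0.86), which was called in the edgeR test (adjusted p 0.0249). It was 0.45 in wt (SE 0.16, adjusted p 0.0746) and 0.39 in Ctrl (SE 0.16, adjusted p 0.114) in the same test, not called.

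The IP6K1 call in SoF was lost without SoF 0 h replicate 2 (log2 change 0.48), without SoF 3 h replicate 1 (0.61) and without SoF 3 h replicate 2 (0.43). In wt the change was called without wt 0 h replicate 2, at 0.70. The first principal component (39.6% of the variance) placed replicate 1 of the ethanol pair closer to the late dexamethasone libraries than replicate 2, in all 3 lines, and the part of this in these results was not tested. The genes around IP6K1 are given beside it. The median 3 h change of 73 tested genes within 1 Mb of IP6K1 came to 0.12 for wt, 0.30 for SoF and 0.37 for Ctrl, against -0.03, -0.03 and -0.02 for all genes. Of the 73, 3 rose and 1 fell in wt, 10 rose and 2 fell in SoF, and 8 rose and 1 fell in Ctrl, where 6.6%, 11.2% and 8.58% of all tested genes rose. Their part in the IP6K1 change was not tested.

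IPPK (ENSG00000127080.10, chr9:92613183-92670131, minus strand), which makes the IP6 that the IP6 kinases use, rose in 2 of the 3 lines. In wt it gave 18.1 and 24.1 CPM at 0 h, 20.3 and 29.8 at 1 h, 26.2 and 35.2 at 2 h, and 34.2 and 33.1 at 3 h. In SoF it went from 22.3 and 25.9 CPM at 0 h to 35.3 and 38.4 at 3 h, and in Ctrl from 24.6 and 27.2 to 34.6 and 33.5. At 2 h and 3 h both libraries were above both 0 h libraries in every line. The 3 h log2 change was 0.68 in wt (SE 0.19, 95% interval 0.28 to 1.08) and 0.62 in SoF (SE 0.19, 95% interval 0.21 to 1.02), with adjusted p of 0.0263 and 0.0291 in the edgeR test. In Ctrl it was 0.40 (SE 0.19, adjusted p 0.185), not called.

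The IPPK call in wt was lost without wt 0 h replicate 1 (log2 change 0.47), wt 3 h replicate 1 (0.66) or wt 3 h replicate 2 (0.71). In SoF it was lost without any 1 of the 4 libraries compared, with values from 0.52 to 0.72. The 3′ end of IPPK overlaps CENPP, a centromere protein gene on the opposite strand. Only the name of the table says that counting was strand-aware, and without that the reads of the overlap could not be told apart. Over 25 tested genes within 1 Mb of IPPK the median 3 h change came to 0.02, -0.10 and -0.13 for wt, SoF and Ctrl.

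IP6K2 (ENSG00000068745.15, chr3:48688003-48740353, minus strand), linked to cell death signalling, was the most abundant member and did not pass the test at any time. Both of its 3 h libraries lay below both 0 h libraries in each line. For wt, SoF and Ctrl its 3 h log2 change was -0.11, -0.14 and -0.15, with 95% intervals of -0.39 to 0.17, -0.42 to 0.14 and -0.43 to 0.13. The upper ends of these intervals lie below the log2 change of IPPK in either of the lines where IPPK rose.

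PPIP5K1 (ENSG00000168781.23, chr15:43533462-43590208, minus strand) ranged from 16.3 to 23.6 CPM over all 24 libraries, and for wt, SoF and Ctrl its 3 h change was 0.24, 0.09 and 0.22. Both of its 3 h libraries lay above both 0 h libraries in each line, but the changes were not called. Its value is uncertain because 32.6% of the 100-base words of its transcripts also occur in an unprocessed pseudogene, ENSG00000249839, whose profile was also the one most like it (r 0.94 over 12 group means). PPIP5K2 (ENSG00000145725.20, chr5:103120149-103212799, plus strand), its relative and the other enzyme on the way to IP8, had log2 changes of 0.16, -0.30 and -0.14 at 3 h, not called. Its libraries differed most at 0 h, at 33.5 and 58.2 CPM in SoF and 27.5 and 45.0 CPM in Ctrl, and the 95% intervals of its 3 h change were -0.78 to 0.17 in SoF and -0.62 to 0.34 in Ctrl. Without SoF 0 h replicate 1 the 3 h change of PPIP5K2 in SoF was -0.65 and was called.

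Counted over the 5 members other than IP6K3, 1 was called at 3 h in wt, where 10.7% of all tested genes were called, 2 in SoF, where 19.3% were, and 0 in Ctrl, where 14.2% were. At 1 h none was called by edgeR or by DESeq2 in any line, with 1 member below an unadjusted p of 0.05 in wt (PPIP5K2) and 0 in SoF and Ctrl. The background at 1 h was 0.156%, 0.165% and 0.0465%. At 2 h none was called by either tool, with 1 member below that unadjusted p in wt, 1 in SoF (IPPK in both) and 0 in Ctrl, against a background of 4.6%, 5.68% and 7.95%. For Ctrl at 3 h the count was 0 by both tools and 1 at the unadjusted p (IP6K1). With 5 genes these counts carry no test against the background.

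**Figure D3:**
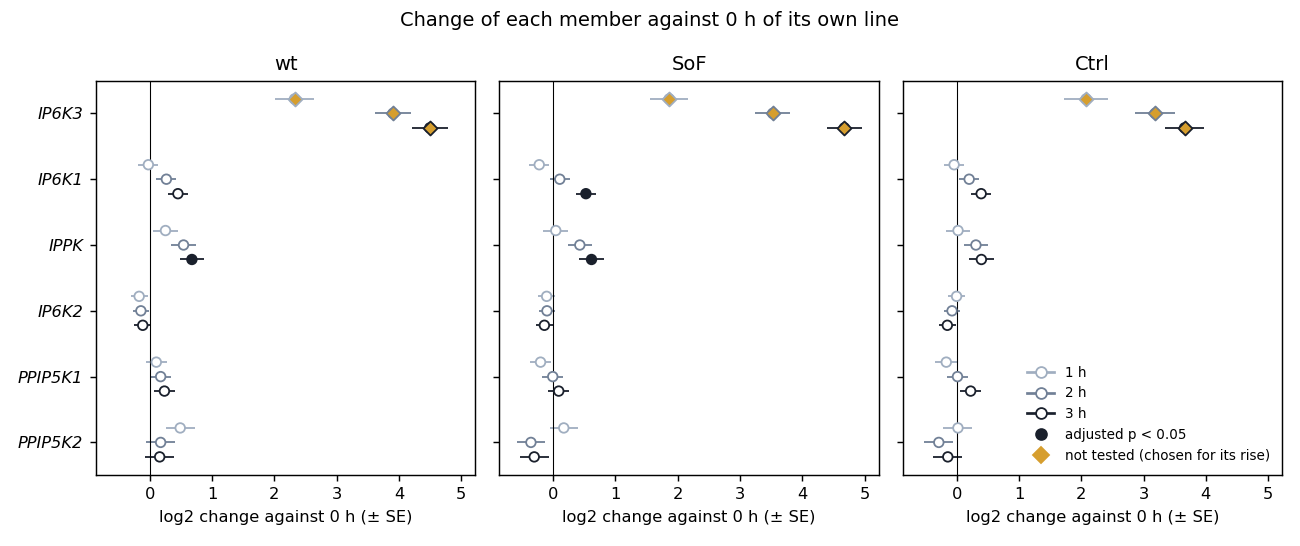
Log2 change against 0 h of the same line (x axis, bars are 1 SE) for the 6 members at 1, 2 and 3 h in wt, SoF and Ctrl (panels); filled circles passed an adjusted p of 0.05, and gold diamonds mark IP6K3, which was not tested. IP6K1 in SoF and IPPK in wt and SoF are the filled points, all at 3 h and all under 0.7.

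The 3 h response of the 5 members did not pass the test of a difference between any 2 lines. For SoF against Ctrl the count over all 6 was 0 by edgeR and DESeq2, with 1 at an unadjusted p of 0.05 (IP6K3). For SoF against wt and for Ctrl against wt it was 0 of 5 by both tools and 0 at the unadjusted p. Among all genes edgeR called 0% in both, with 558 and 845 genes at the unadjusted p and 0 and 1 called by DESeq2. The intervals were wide. For IP6K1 the response in SoF differed from that in Ctrl by 0.13 (95% interval -0.34 to 0.61), and for IPPK by 0.22 (-0.35 to 0.79). The 3 responses share their 0 h and 3 h libraries pairwise, so they are not separate pieces of evidence.

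Levels between genes are compared per kilobase of exon. At 0 h the order in wt was IP6K2 at 23.9 CPM per kb, IP6K1 at 7.21, IPPK at 4.19, PPIP5K1 at 2.23, PPIP5K2 at 1.74 and IP6K3 at 0.365, and no 2 neighbours in that order overlapped. In SoF and Ctrl the order at 0 h was the same, with PPIP5K1 and PPIP5K2 overlapping. After 3 h IP6K3 had moved up to 8.22 CPM per kb in wt, overlapping both IP6K1 at 9.86 and IPPK at 6.69. It reached 14.5 CPM per kb in SoF, above IP6K1 at 11.5, with IP6K2 at 24.5 still above both. In Ctrl it reached 4.30 CPM per kb, below IPPK at 6.77 and above PPIP5K1 at 2.73. By its mean IP6K3 went from the last place at 0 h to the second in SoF and the fourth in Ctrl, without overlap with its neighbours there, and in wt it could not be placed apart from IP6K1 or IPPK.

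IP6K2 was the member whose level passed the test between lines. Its 8 libraries ran from 105 through a median of 129 to 138 CPM in wt, from 136 through 141 to 157 CPM in SoF, and from 94.3 through 98.8 to 112 CPM in Ctrl. Every SoF library was above every Ctrl library, while the wt range overlapped both. IP6K2 was higher in SoF than in Ctrl by a log2 difference of 0.51 (SE 0.06, 95% interval 0.38 to 0.64), with an adjusted p of 8.92e-06 in the edgeR test. It was lower in Ctrl than in wt by a log2 difference of -0.30 (SE 0.06, adjusted p 0.00561) and higher in SoF than in wt by 0.21 (SE 0.06, adjusted p 0.046) in the same test. It was the 1 member called in each of these comparisons, in which 3.61%, 4.77% and 8.02% of genes were called.

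Without the replicate 1 libraries the SoF against Ctrl difference of IP6K2 was 0.42 and was not called, and without the replicate 2 libraries it was 0.59 and was called. The differences from wt were called in neither case. For SoF they were 0.24 without replicate 1 and 0.18 without replicate 2, and for Ctrl they were -0.19 and -0.42. In the 0 h libraries alone the 3 differences were 0.54, -0.36 and 0.18, not called. There, edgeR called 0 members in each comparison, with 1 member in each at an unadjusted p of 0.05 (IP6K2 in both comparisons with Ctrl and PPIP5K2 in SoF against wt) and 0.347%, 0.309% and 0.347% of all genes called. DESeq2 called 1 member in SoF against Ctrl and 0 in the other two. With an additive time term 3 members were called in SoF against Ctrl, namely IP6K2, IP6K1 (0.26) and, as a description only, IP6K3. In that fit 6.73% of all tested genes were called higher in SoF than in Ctrl and 6.6% lower. For the other members, the SoF against Ctrl difference in level was 0.28 for IP6K1 (95% interval 0.02 to 0.54), 0.34 for PPIP5K2 (0.05 to 0.63), 0.16 for PPIP5K1 (-0.03 to 0.35) and 0.00 for IPPK (-0.29 to 0.30), with no call.

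IP6K2 and IP6K1 sit about 1 Mb apart on chromosome 3, and the genes around them differed between the lines too. Of 93 other tested genes within 1 Mb of either, 87 had a negative log2 difference of Ctrl against wt, with a median of -0.43, and 35 were called, each of them lower, where 2.66% of all genes were called lower. In SoF against Ctrl, 89 of the 93 were positive, with a median of 0.31, and 16 were called, each of them higher, against 2.16% of all genes called higher. In SoF against wt 33 were positive and 60 negative, with a median of -0.14. Of the 93, 3 were called higher and 1 lower, where 8.02% of all tested genes were called in either direction. Over all tested genes the medians were -0.0045 for Ctrl against wt and 0.0048 for SoF against Ctrl, and over the 1105 tested genes of chromosome 3 they were -0.13 for Ctrl against wt and 0.20 for SoF against Ctrl. For SoF against wt the median was -0.0073 over all tested genes and 0.03 over those of chromosome 3.

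In both comparisons with Ctrl the difference of IP6K2 had the sign of the median of these genes, and in SoF against wt it had the opposite sign. Their part in the IP6K2 differences was not tested. Around the other members the median of Ctrl against wt was -0.03 for 56 genes near IP6K3, 0.01 for 40 near PPIP5K1, -0.03 for 6 near PPIP5K2 and -0.02 for 22 near IPPK. In the same order of members it was -0.06, 0.03, 0.16 and 0.01 for SoF against Ctrl. For SoF against wt it was -0.12, 0.07, 0.17 and -0.02. With an additive time term, chosen after seeing the data, the median of the 93 genes in Ctrl against wt was again -0.43 and 67 were called lower, where 10.3% of all genes were called lower in that fit. In the 0 h libraries alone, likewise chosen after seeing the data, the median over 98 tested genes was -0.58.

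**Figure D4:**
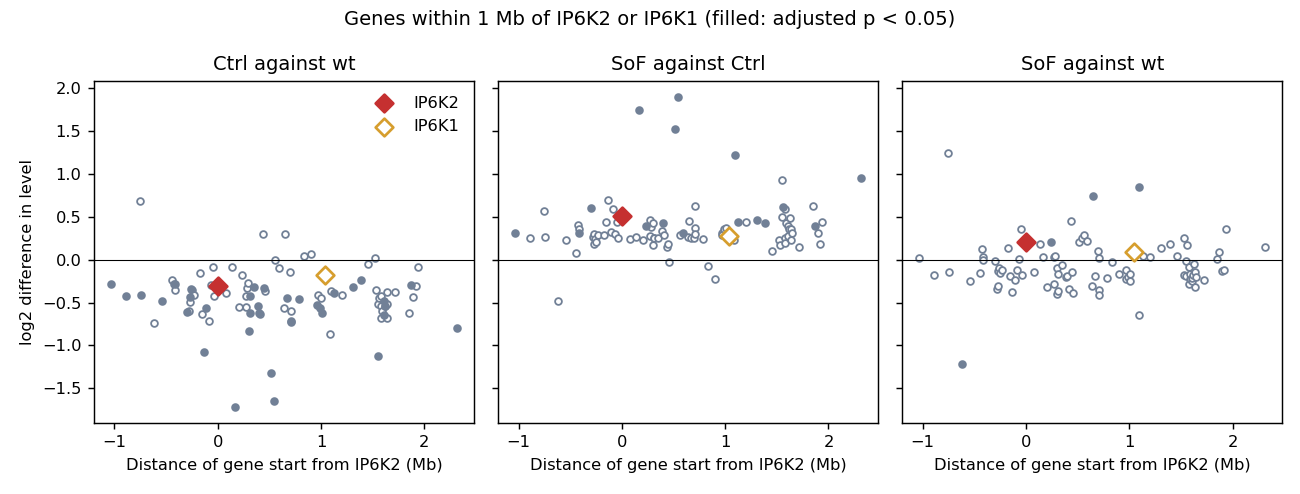
Log2 difference in level between lines (y axis) for genes within 1 Mb of IP6K2 or IP6K1. The x axis is the distance in Mb of each gene's midpoint from the midpoint of IP6K2, although its label says gene start. Filled symbols passed an adjusted p of 0.05. Beside the diamonds, which are IP6K2 and IP6K1, 87 of 93 points lie below 0 in Ctrl against wt and 89 lie above it in SoF against Ctrl.

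The rest of the soluble inositol phosphate pathway was read from a list of 33 genes, of which 31 were tested. At 3 h, 6 rose and 1 fell in wt, 11 rose and 3 fell in SoF, and 7 rose and 3 fell in Ctrl. Among all tested genes, 6.6% rose and 4.12% fell in wt, 11.2% and 8.11% in SoF, and 8.58% and 5.6% in Ctrl. The median log2 change of the list was 0.14, 0.30 and 0.22, against -0.03, -0.03 and -0.02 for all tested genes. None of the list was called at 1 h by edgeR or DESeq2 in any line. In edgeR 3 genes were below an unadjusted p of 0.05 in wt and 0 in SoF and Ctrl. At 2 h edgeR called 2 for wt (2 rose, 0 fell), 4 for SoF (3 rose, 1 fell) and 7 for Ctrl (7 rose, 0 fell). Of all tested genes 4.6%, 5.68% and 7.95% were called at 2 h in wt, SoF and Ctrl.

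Upstream of IPPK stand the other inositol phosphate kinases. At 3 h, 3 of 5 rose in wt, 3 in SoF and 2 in Ctrl, and the others were not called. ITPKC, which phosphorylates inositol trisphosphate and so removes a calcium signal, went from a mean of 38.7 to 88.8 CPM in wt, from 34.6 to 113.5 CPM in SoF and from 46.9 to 82.3 CPM in Ctrl. Its log2 change was 1.20 (SE 0.24), 1.71 (SE 0.25) and 0.80 (SE 0.24), called in each line in the edgeR test (adjusted p 0.00219, 4.55e-05 and 0.0285). ITPKA, its relative known from neurons, rose by 0.97 in wt, from 2.08 to 4.07 CPM, and by 1.93 in SoF, from 1.71 to 6.61 CPM, and stood at 0.90 in Ctrl without a call. ITPK1, which adds phosphates on the way to IP6, rose by 0.75, 1.17 and 0.92 in wt, SoF and Ctrl. IPMK and ITPKB were not called in any line at 3 h.

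Of the phospholipases C, which release inositol trisphosphate from membrane lipid, PLCG1 rose in each line by 0.47, 0.75 and 0.87. PLCB3 rose by 0.80 in SoF and 0.98 in Ctrl and was at 0.31 in wt without a call, and PLCD1 rose by 1.05 and 1.43 and was at 0.74 in wt without a call. PLCE1 fell by 0.49 in SoF and by 0.74 in Ctrl on the log2 scale, and its change in wt was -0.26, not called. The other 7 phospholipase genes tested were not called at 3 h.

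Transport and recycling genes moved both ways. SLC5A3, the sodium-coupled inositol importer, rose by 0.86, 0.76 and 0.61 in wt, SoF and Ctrl, and the phosphate importer SLC20A1 rose by 1.27, 1.30 and 0.81. SLC20A1 averaged 402 CPM at 0 h and 970 CPM at 3 h in wt. Its relative SLC20A2 fell by 1.04 in SoF and by 0.96 in Ctrl on the log2 scale, with -0.53 in wt not called. XPR1, the phosphate exporter that senses inositol pyrophosphates, had log2 changes of -0.12 in wt and -0.09 in Ctrl and one that rounds to 0.00 in SoF, without a call. IMPA1, which frees inositol from its monophosphate, fell by 0.56, by 0.69 and by 0.70 on the log2 scale in wt, SoF and Ctrl. Its mean went from 52.4 to 35.5 CPM in wt. MINPP1, a phosphatase that acts on IP6, rose by 0.59 in SoF and was at 0.51 in wt and 0.46 in Ctrl without a call. The pyrophosphate hydrolases NUDT10 and NUDT11 rose in SoF, by 0.61 and 0.76, but they are close paralogs, and whether reads were split between them was not measured, so their separate values are uncertain. None of the 31 genes passed the test of a difference in 3 h response between lines by edgeR or DESeq2, with 3 at an unadjusted p of 0.05 in SoF against Ctrl, 1 in SoF against wt and 2 in Ctrl against wt.

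**Figure D5:**
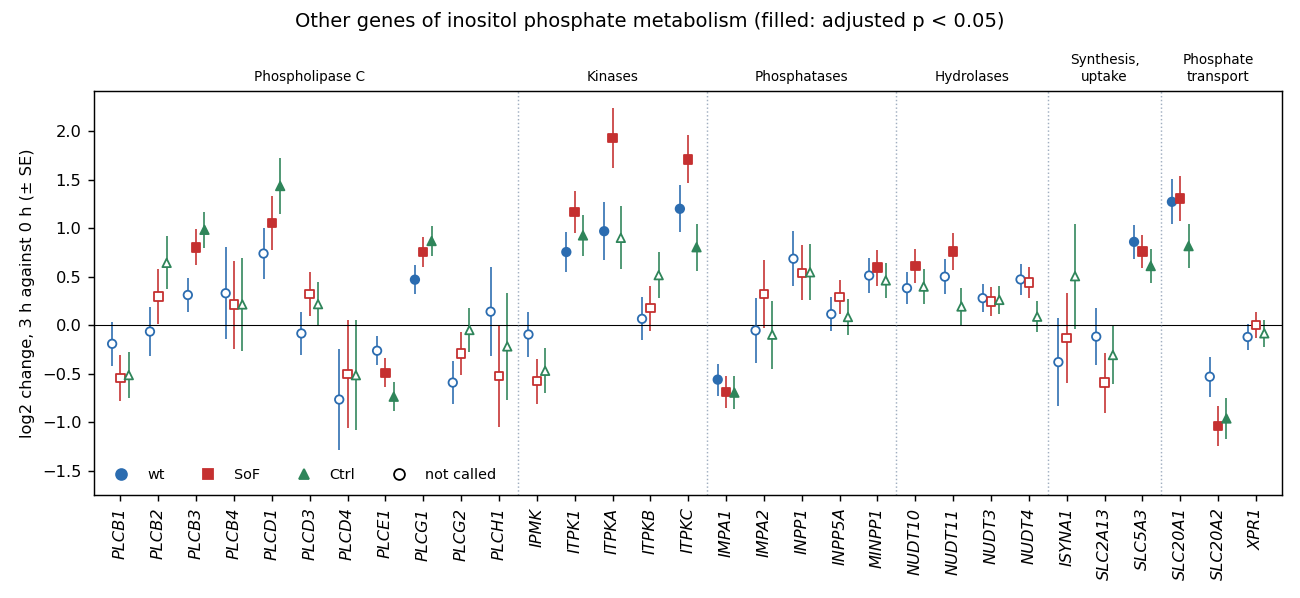
Log2 change at 3 h against 0 h (y axis, bars are 1 SE) of 31 tested genes of inositol phosphate metabolism (x axis, grouped by role) in wt, SoF and Ctrl; filled symbols passed an adjusted p of 0.05. Among the kinases ITPK1, ITPKA and ITPKC lie above 0.7 in all 3 lines, and IMPA1 lies below -0.5 in all 3.

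The members most alike in course over the 12 group means were IP6K3 and IPPK (r 0.89), IP6K1 and PPIP5K1 (r 0.86) and IP6K3 and IP6K1 (r 0.79), while IP6K2 and IP6K3 had an r of 0.02. These values describe 12 points that share lines and times. By the same measure the closest genes were PINK1 for IP6K1 (0.98), USPL1 for IPPK (0.99), LYSMD3 for PPIP5K2 (0.96) and, among protein-coding genes, PRKRIP1 for IP6K2 (0.95).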

How the data were processed

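The authors tagged unique molecular identifiers (UMI-tools 1.1.2), trimmed reads (Trim Galore 0.6.6), aligned them to hg38 (STAR 2.7.3a), removed duplicates and counted reads over exons of GENCODE release 39 with featureCounts. The deposited values are raw counts per gene and library, without normalization. Symbols and positions came from GENCODE release 44, which matched 61369 of 61533 identifiers (99.7%).

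Counts were tested in edgeR 4.0.16 (R 4.3.3, limma 3.58.1) with TMM, filterByExpr (minimum count 10, minimum total 15), quasi-likelihood F tests, and p-values adjusted after Benjamini-Hochberg over all genes, called under 0.05. A fit over 12 groups (23651 genes) gave changes against 0 h and differences in 3 h response, and a fit on line alone (21122 genes), with time ignored as in the study's methods, gave levels. The fit over 12 groups was tried on simulated counts, for changes at 3 h against 0 h in wt and SoF. The fit on line alone and the differences in response were not simulated. DESeq2, which the authors used in an earlier version, was the other tool, here as version 1.42.0. Other scaling, no low-count filter, a replicate block, an additive time term, the 0 h libraries alone and each library left out were tried. Libraries of a group differed by 6.16 to 22.6 times counting error in variance (chi-square per degree of freedom over the genes above a minimum count in that group). A log2 CPM used a prior count of 2. In bulk RNA, fewer expressing cells and less RNA per cell cannot be told apart.

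Members and lists were chosen with earlier results of these data known. Named pathway genes were those called at 3 h in at least 2 lines in 1 direction, and XPR1, MINPP1, NUDT10 and NUDT11 were named after their values were seen. Likeness was ranked by Pearson's r over the 12 group means. GENCODE and RefSeq gave transcripts and promoters, with all 6 members matched.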

Additional observations from a re-analysis of the deposited data

How the results depend on the processing

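Of the counts recomputed under other settings, 150 stayed within 1.5 times the value reported and 18 moved further. No called log2 value changed sign, 19 lost their call and 5 gained one. A further 6, all of them untested changes of IP6K3 in wt, moved by at least the SE of the main fit when 1 wt library was left out. They moved to 2.65 at 1 h, 3.59 to 4.22 at 2 h and 4.19 to 4.83 at 3 h. The number of members called at 3 h in wt was 1, with a range of 0 to 2 over the libraries left out in turn, and in SoF it was 2, with a range of 0 to 2. Replicate number was not taken to pair the libraries, because over 66 pairs of groups the correlation of same-numbered deviations ran from -0.22 to 0.57 with a median of 0.04, and 21 were over 0.1. Among the 0 h groups, however, it lay between 0.39 and 0.57, so same-numbered ethanol libraries did deviate together. With the replicate number as a block, 2 members were called at 3 h in wt (IPPK and IP6K1), and no other count of members moved. For levels of SoF against Ctrl the 1 member called became 3 with an additive time term. IP6K3 is among them as a description only, because that fit shares its time terms with wt. That fit called 6.73% of all tested genes higher and 6.6% lower. The count became 0 in the 0 h libraries alone, and 0 to 1 without replicate 1 or replicate 2. For SoF against wt the 1 call became 0 without the low-count filter, 0 in the 0 h libraries alone and 0 without either replicate, and for Ctrl against wt it became 0 in the 0 h libraries alone and 0 without either replicate. Where only 1 library of a group remained, its spread was taken from the other groups. With a prior count of 0.5, 6 of the 8 genes most like IP6K3 remained among its first 8. IP6K3 at 0 h is limited by its 10 to 20 reads, and every member by having 2 libraries per group.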
